A study of Mus musculus with 4 samples.

Results

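The glycolytic isoforms and the glucose transporter of this series were followed across 4 mouse cell populations on the way from mesoderm to cardiomyocytes. The members were chosen by identifier: an array probe belonged to the group when its name in the scanner file equalled 1 of 10 listed RefSeq identifiers, for the hexokinases Hk1 and Hk2, the phosphofructokinases Pfkl, Pfkm and Pfkp, the lactate dehydrogenases Ldha and Ldhb, the enolases Eno1 and Eno3, and the glucose transporter Slc2a1. Of the 10 identifiers, 7 were on the arrays (Hk2, NM_013820; Pfkl, NM_008826; Pfkm, NM_021514; Pfkp, NM_019703; Ldhb, NM_008492; Eno1, NM_023119; Slc2a1, NM_011400), with 8 probes among 39429, and all 8 were well above background in all 4 populations. The arrays hold 33227 systematic names in all. The identifiers listed for Hk1, Ldha and Eno3 were absent, but the arrays carry probes under another RefSeq name of each gene (NM_001146100 with 2 probes, NM_001136069 with 3 and NM_001136062 with 1). These 3 genes were chosen as partners after it was seen that their identifiers were absent, and they enter no count of members.

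The study asked how a mixture of 4 modulators, CsAYTE, drives mesodermal precursors into cardioblasts, and it measured total RNA of each population on a 1-colour Agilent array, with 1 array per population and no replicates. Flk1+ MPCs were mesodermal precursor cells sorted at day 4.5 of differentiation without leukemia inhibitory factor. PCBs were PDGFRα+Flk1- cardioblasts sorted at day 5.5 after CsAYTE, which joins Cyclosporin A with Y27632 (an inhibitor of ROCK), Trolox (an antioxidant) and EW7197 (an inhibitor of ALK5), and sfPCBs were spontaneously formed PCBs of the same day without CsAYTE, with DMSO as the vehicle. M+CMs were αMHC-GFP+ cardiomyocytes sorted at day 10.5, which the study describes as derived from PCBs. Their label does not say whether CsAYTE was given. The labels name embryonic stem cells as the cell type of all 4 populations, and the αMHC-GFP reporter used by the study is a transgene of the EMG7 line, in which the cardiac α myosin heavy chain promoter drives GFP. After the sort at day 4.5, cells were grown on mitomycin-treated OP9 stromal cells or on gelatin. Flk1+ MPCs were raised on gelatin before that sort, and the study reports no induction of mouse PCBs without feeder cells. OP9 cells are mouse cells whose RNA can hybridize to the same probes.

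Glycolysis turns glucose into pyruvate in the cytosol. Glucose enters the cell through transporters of the GLUT family, is trapped by hexokinase, is committed to the pathway by phosphofructokinase, and, after the steps that end with enolase and pyruvate kinase, leaves as pyruvate, which lactate dehydrogenase exchanges with lactate. Most steps have several isoforms with their own genes: early embryonic cells are known for a highly glycolytic metabolism, whereas the heart uses muscle and heart forms such as Pfkm, Eno3 and Ldhb and oxidizes much of its pyruvate and lactate in mitochondria.

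Levels are given as scaled signals, that is, the background-subtracted brightness of a probe after each array was brought to a common 75th percentile, and a probe was compared with itself between arrays, never with another probe. Differences are log2 ratios with the error that the scanner software assigns to the spots, which covers the spot and its background and leaves out the spread between cultures, so that no test between populations was possible. The arrays had between 73.3% and 76.2% of their 43020 spots well above background, the lowest scaled signal called so lay between 15.1 and 15.9, and the median SD between repeated spots of a probe lay between 0.0526 and 0.0931 on the log2 scale, highest in sfPCBs. In bulk samples of this kind, fewer cells of a type and less RNA per cell cannot be told apart.

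The labels were checked against markers. The summed scaled signal of 7 cardiomyocyte markers was 7345 in Flk1+ MPCs, 4792 in sfPCBs and 283921 in PCBs, then 991410 in M+CMs, and their median was 150.2, 227.2, 6157 and 53981. The lower sum of sfPCBs was that of Myl7 (6095 in Flk1+ MPCs and 588.2 in sfPCBs), whereas Tnnt2 was higher there (150.2 and 3176). The summed signal of 5 markers of Flk1+ mesoderm was 95560, 16064, 11606 and 4959. Kdr, which encodes Flk1, was nevertheless well above background in all 4 populations, with scaled signals of 24858, 5511, 2363 and 3993, and Pdgfra was at 7237, 3647, 9136 and 918.3. The 8 markers of stroma or fibroblasts, the kind of cell that OP9 is, summed to 4324 in Flk1+ MPCs, 290612 in sfPCBs and 149406 in PCBs, then 23658 in M+CMs, with 6, 8, 7 and 8 of the 8 well above background. The 4 endothelial markers summed to 294.2, 2876, 232.6 and 416.5, with Emcn not well above background anywhere, and the 6 blood markers to 333.3, 3447, 3182 and 241.6. The blood sum of PCBs was mostly the globins Hbb-bh1 (2525) and Hba-x (465.3), while Gata1, Itga2b and Ptprc were at 53.5, 27.7 and 28.6 in PCBs and 48.1, 31.6 and 31.6 in Flk1+ MPCs. The part of these markers in the differences that follow was not tested.

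Promoter sequences are shown for Slc2a1, Hk2 and Ldha, which were lower in PCBs than in Flk1+ MPCs and hold the motif ACGTG, and for Pfkl and Ldhb, which were lower too and do not. Hk1 and Pfkm also hold ACGTG, each with 2 sites in a promoter, and were not lower in PCBs (log2 ratios -0.05 and 0.37 against Flk1+ MPCs). Pfkp and Eno1 were lower in PCBs as well (log2 ratios -1.21 and -0.95, the latter -0.45 with quantile normalization), hold no ACGTG and are not printed. ACGTG is a form of the core of the hypoxia response element bound by HIF factors, which are known to drive many glycolytic genes. The form GCGTG was not searched, and it lies in the printed Pfkl and Ldhb sequences, so that these do not lack every form of the core. CACGTG, which contains ACGTG, is the E-box bound by Myc and its relatives. The sequences are RefSeq promoters of build GRCm38.p6, each 300 bases from 250 before to 50 after a gene's start, printed 5′ to 3′ in the direction of the gene, with matches in capitals (ACGTG, its reverse complement CACGT, or CACGTG, both strands searched, overlapping matches counted as 1 site). Where a gene has several promoters in the table, the first is shown.
Slc2a1, chr4:119108495-119108794, plus strand: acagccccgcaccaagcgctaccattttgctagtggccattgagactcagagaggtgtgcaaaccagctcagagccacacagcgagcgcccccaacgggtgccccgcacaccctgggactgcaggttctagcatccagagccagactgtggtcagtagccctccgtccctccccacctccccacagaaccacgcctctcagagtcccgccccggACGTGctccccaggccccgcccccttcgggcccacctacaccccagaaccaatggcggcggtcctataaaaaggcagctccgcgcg
Hk2, chr6:82774405-82774704, minus strand: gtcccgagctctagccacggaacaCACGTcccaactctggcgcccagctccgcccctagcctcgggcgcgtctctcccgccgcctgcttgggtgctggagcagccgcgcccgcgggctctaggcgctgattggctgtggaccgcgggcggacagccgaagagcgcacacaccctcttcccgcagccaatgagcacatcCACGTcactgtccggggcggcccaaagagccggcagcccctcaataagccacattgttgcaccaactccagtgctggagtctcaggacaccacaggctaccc
Ldha, chr7:46845554-46845853, plus strand: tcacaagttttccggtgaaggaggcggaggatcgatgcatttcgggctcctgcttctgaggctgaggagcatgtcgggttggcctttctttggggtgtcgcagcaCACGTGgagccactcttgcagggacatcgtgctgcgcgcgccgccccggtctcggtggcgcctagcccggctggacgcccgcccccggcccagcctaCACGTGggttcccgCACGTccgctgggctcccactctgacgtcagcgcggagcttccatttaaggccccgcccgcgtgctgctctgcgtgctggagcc
Pfkl, chr10:78009758-78010057, minus strand: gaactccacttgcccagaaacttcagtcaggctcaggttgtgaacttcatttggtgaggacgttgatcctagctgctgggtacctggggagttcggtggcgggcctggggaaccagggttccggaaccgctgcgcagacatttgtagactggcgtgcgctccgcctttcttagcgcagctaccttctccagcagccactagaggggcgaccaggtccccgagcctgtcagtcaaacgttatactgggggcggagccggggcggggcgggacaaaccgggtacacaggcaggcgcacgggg
Ldhb, chr6:142507908-142508207, minus strand: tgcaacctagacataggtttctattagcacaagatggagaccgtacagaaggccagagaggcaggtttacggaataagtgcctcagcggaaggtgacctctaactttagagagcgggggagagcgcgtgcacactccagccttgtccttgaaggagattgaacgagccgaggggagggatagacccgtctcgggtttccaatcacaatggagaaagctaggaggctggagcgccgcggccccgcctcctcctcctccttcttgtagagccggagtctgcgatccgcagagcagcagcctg
The printed sequence of Slc2a1 holds 1 site, that of Hk2 holds 2 and that of Ldha holds 3, of which 2 are E-boxes. Ldha has 2 promoters in the table, and the other one holds 0 sites. Of the 17 promoters of the 10 listed genes, 6 hold ACGTG, beside 19.6% of all 32851 promoters in the table. CACGTG was found in 2 of the 17, beside 7.15% of all promoters. A match says only that these letters lie in this window.

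Slc2a1 encodes GLUT1, the transporter for basal glucose uptake. Its scaled signal was 129297 in Flk1+ MPCs, 126135 in sfPCBs and 36900 in PCBs, then 88248 in M+CMs. The signal was lowest in PCBs, M+CMs lay between, and Flk1+ MPCs and sfPCBs were within 2 errors of each other (log2 ratio -0.04, error 0.20; the sign turned with quantile normalization, 0.48, and without scaling, 0.30). PCBs were 3.42-fold lower than sfPCBs of the same day (log2 ratio -1.77, error 0.20), and 2.99% of the 25233 names compared were as low or lower. M+CMs were 2.39-fold higher than PCBs (log2 ratio 1.26, error 0.20) and lay 1.47-fold below Flk1+ MPCs. Slc2a1 is also used by endothelial and blood cells: of the endothelial markers, Cdh5 had a scaled signal of 986.6 in sfPCBs and was not well above background in PCBs, and Tek was at 1463 and 40.4. Of the 8 stromal markers, 7 were higher in sfPCBs and Thy1 was not (102.4 in sfPCBs and 147.2 in PCBs). Of the blood markers, Hbb-bh1 was close in both (2781 and 2525), Gata1 (206.1 and 53.5) and Itga2b (101.5 and 27.7) were higher in sfPCBs, and Hba-x (308.1 and 465.3) and Klf1 (29.8 and 81.9) were higher in PCBs. The part of these markers in the difference of Slc2a1 was not tested. Its promoter, printed above, holds 1 ACGTG site.

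Hexokinase traps glucose as glucose 6-phosphate, with Hk2 as the regulated form of muscle, fat and growing cells and Hk1 as the form found in most tissues. Hk2 had a scaled signal of 23694 in Flk1+ MPCs, 6908 in sfPCBs and 9898 in PCBs, then 16083 in M+CMs. Hk2 was thus highest in the precursors and lowest in sfPCBs, with each population apart from the next by more than 2 errors in the main setting. With quantile normalization, M+CMs over Flk1+ MPCs came within 2 errors (log2 ratio -0.27, error 0.19). PCBs over sfPCBs did so without scaling (0.37, error 0.20) and with a normexp background (0.49, error 0.25). Hk2 was 3.43-fold lower in sfPCBs and 2.39-fold lower in PCBs than in Flk1+ MPCs (log2 ratios -1.78 and -1.26, errors 0.20). In M+CMs it was 1.62-fold higher than in PCBs, which is short of 2-fold. Hk1, measured under its other name, was at 1906 in Flk1+ MPCs, 2573 in sfPCBs and 1844 in PCBs, then 22544 in M+CMs. Hk1 was thus low in the first 3 populations and 12.2-fold higher in M+CMs than in PCBs (log2 ratio 3.61, error 0.20), and both of its probes were highest in M+CMs, followed by sfPCBs.

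Phosphofructokinase commits sugar to glycolysis and works as a tetramer of liver (Pfkl), muscle (Pfkm) and platelet (Pfkp) subunits. Pfkl had a scaled signal of 24637 in Flk1+ MPCs, 3594 in sfPCBs and 3385 in PCBs, then 14065 in M+CMs. Of the 7 members it lay furthest below Flk1+ MPCs in both day 5.5 populations, 6.85-fold in sfPCBs and 7.28-fold in PCBs (log2 ratios -2.78 and -2.86, errors 0.20), and 1.32% and 1.95% of all names compared were as low or lower. Both day 5.5 populations were within error of each other, and M+CMs were 4.16-fold higher than PCBs without reaching Flk1+ MPCs (log2 ratio -0.81, error 0.20).

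Pfkm had a different course, with scaled signals of 5090 in Flk1+ MPCs, 4514 in sfPCBs and 6586 in PCBs, then 33261 in M+CMs. Flk1+ MPCs lay within 2 errors of both day 5.5 populations, PCBs were 1.46-fold above sfPCBs (log2 ratio 0.54, error 0.20), and M+CMs stood apart at 5.05-fold above PCBs (log2 ratio 2.34, error 0.20). Pfkm was spotted 10 times on each array, and the SD over its spots was between 0.029 and 0.045 on the log2 scale. This is the spread between spots within an array and leaves out the spread between cultures.

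Pfkp had a mean scaled signal over its 2 probes of 1189 in Flk1+ MPCs, 573.2 in sfPCBs and 514.1 in PCBs, then 7991 in M+CMs. It combined the low day 5.5 levels of Pfkl with the high M+CM level of Pfkm: it was 2.31-fold lower in PCBs than in Flk1+ MPCs (log2 ratio -1.21, error 0.21) and 15.5-fold higher in M+CMs than in PCBs (log2 ratio 3.96, error 0.21), a value that 1.38% of names reached. The 2 probes differed in brightness, the brighter at 8663, 2835, 2344 and 40050 and the dimmer at 163.2, 115.9, 112.8 and 1595 in the order above, with the same order of populations. The log2 ratio of sfPCBs over Flk1+ MPCs was -1.05 and depended on the setting. It was -0.72 without scaling, -0.97 with a normexp background and -0.98 with an offset of 50. The brighter probe alone gave -1.61 and the dimmer -0.49. For PCBs over Flk1+ MPCs the brighter gave -1.89 and the dimmer -0.53.

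**Figure D1:**
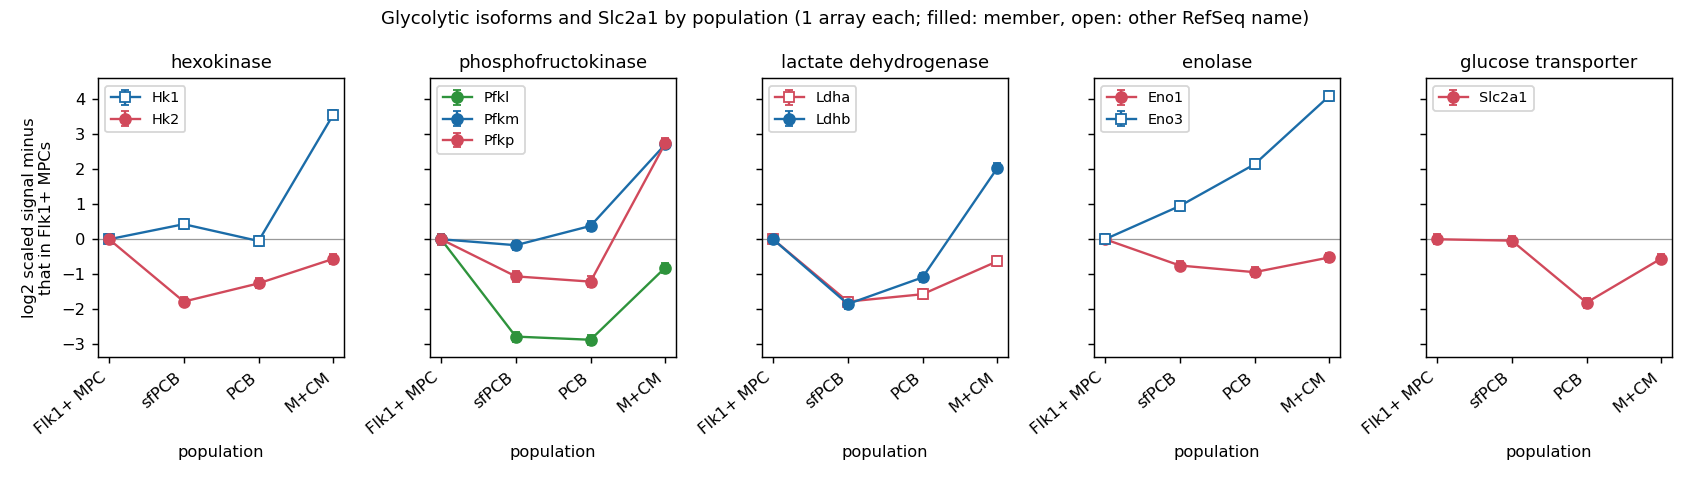
Log2 scaled signal of each gene minus its own value in Flk1+ MPCs (vertical axis, log2 units) in the 4 populations (horizontal axis), 1 array each, with bars for the error of the signal on each array, filled circles for members and open squares for genes measured under another RefSeq name. Lines join the points of a gene and do not imply descent, since sfPCBs and PCBs are parallel populations of day 5.5; Pfkm, Pfkp, Ldhb, Hk1 and Eno3 end above their start, and Slc2a1 is lowest in PCBs, with sfPCBs level with Flk1+ MPCs.

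Enolase makes phosphoenolpyruvate, with Eno1 as the form of most tissues and Eno3 as the muscle form. Eno1 had a scaled signal of 307727 in Flk1+ MPCs, 182890 in sfPCBs and 159756 in PCBs, then 214961 in M+CMs. Its highest level was 1.93-fold above its lowest, the narrowest range of the 7 members, and sfPCBs lay within 2 errors of both PCBs and M+CMs, whereas M+CMs were 1.35-fold above PCBs (log2 ratio 0.43, error 0.20). M+CMs lay below Flk1+ MPCs with a log2 ratio of -0.52, which became 0.05 with quantile normalization. The log2 ratios of sfPCBs and PCBs over Flk1+ MPCs were -0.75 and -0.95 (errors 0.20). They depended on the setting too, with -0.13 and -0.45 under quantile normalization (errors 0.23). Eno1 is also uncertain because its near-identical copy Eno1b has probes on the arrays, the brighter of which read 289840, 201405, 150172 and 210684 in the same order, so that signal could be shared between the copies. Eno3, under its other name, was at 5139 in Flk1+ MPCs, 9974 in sfPCBs and 22666 in PCBs, then 87569 in M+CMs. Each population in this order was higher than the one before. Eno3 was 2.27-fold higher in PCBs than in sfPCBs (log2 ratio 1.18, error 0.20), a difference that no member reached upward, and 17-fold higher in M+CMs over Flk1+ MPCs.

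Lactate dehydrogenase is a tetramer of A subunits, the form of glycolytic tissue, and B subunits, the form of heart. Ldhb had a scaled signal of 42912 in Flk1+ MPCs, 11889 in sfPCBs and 20116 in PCBs, then 175937 in M+CMs. It was lowest in sfPCBs and by far highest in M+CMs, and all neighbours in this order were apart by more than 2 errors. Compared with Flk1+ MPCs, Ldhb was 3.61-fold lower in sfPCBs (log2 ratio -1.85, error 0.20) and 2.13-fold lower in PCBs (log2 ratio -1.09, error 0.20, which became -0.86 with quantile normalization and -0.91 without scaling). It was 8.75-fold higher in M+CMs than in PCBs (log2 ratio 3.13, error 0.20). Ldha, under its other name, had a mean scaled signal over 3 probes of 117939 in Flk1+ MPCs, 34303 in sfPCBs and 39917 in PCBs, then 76406 in M+CMs. Ldha was highest in Flk1+ MPCs, 3.44-fold above sfPCBs and 2.95-fold above PCBs, and M+CMs were 1.91-fold above PCBs. Its brightest probe gave smaller differences, with log2 ratios of -0.96 in sfPCBs and -0.82 in PCBs against Flk1+ MPCs in place of -1.78 and -1.56. For M+CMs against Flk1+ MPCs that probe gave -0.11 in place of -0.63.

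Over the 7 members, 4 were highest in Flk1+ MPCs (Hk2, Pfkl, Eno1 and Slc2a1) and 3 in M+CMs (Pfkm, Pfkp and Ldhb). With quantile normalization, Slc2a1 was highest in sfPCBs and Eno1 in M+CMs, and without scaling Slc2a1 was highest in sfPCBs. All 7 were lowest at day 5.5 (without scaling, Pfkm was lowest in Flk1+ MPCs), Hk2, Pfkm and Ldhb in sfPCBs and Pfkl, Pfkp, Eno1 and Slc2a1 in PCBs, although the difference between the lowest and the next population was within 2 errors for Pfkl, Pfkm, Pfkp and Eno1. The widest range was that of Pfkp, 15.5-fold, followed by Ldhb at 14.8-fold, Pfkm at 7.37-fold and Pfkl at 7.28-fold.

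Between sfPCBs and Flk1+ MPCs, 4 of 7 members were at least 2-fold lower (Hk2, Pfkl, Pfkp and Ldhb) and 0 were higher, beside 12.7% of all names lower and 13% higher. Of the members, 3 were lower without scaling, with a normexp background and with an offset of 50. Beside them, 1877, 1646 and 1635 of 25744 names were lower in these settings. The median log2 ratio of the members was -1.05 and that of all names was -0.22. Between PCBs and Flk1+ MPCs, 5 of 7 were lower (Hk2, Pfkl, Pfkp, Ldhb and Slc2a1), beside 12.1% of names. Higher were 0, beside 12.7% of names, and the medians were -1.21 and -0.20. With quantile normalization and without scaling, 4 were lower, beside 3089 and 2387 of 25855 names. Between PCBs and sfPCBs, 1 of 7 members was lower, Slc2a1, and 0 were higher, beside 7.45% of names lower and 6.13% higher, with medians of -0.09 and 0.03, so that the share was near that of all names. M+CMs were at least 2-fold higher than PCBs in 5 of 7 members (Pfkl, Pfkm, Pfkp, Ldhb and Slc2a1) and lower in 0, beside 20.4% of names higher and 15.2% lower, with medians of 2.05 and 0.16. Against Flk1+ MPCs, M+CMs were higher in 3 (Pfkm, Pfkp and Ldhb) and lower in 0, beside 22% higher and 21.4% lower, with medians of -0.52 and 0.00. These comparisons share arrays, and each rests on 1 array per population, so that a single array enters several of them.

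**Figure D2:**
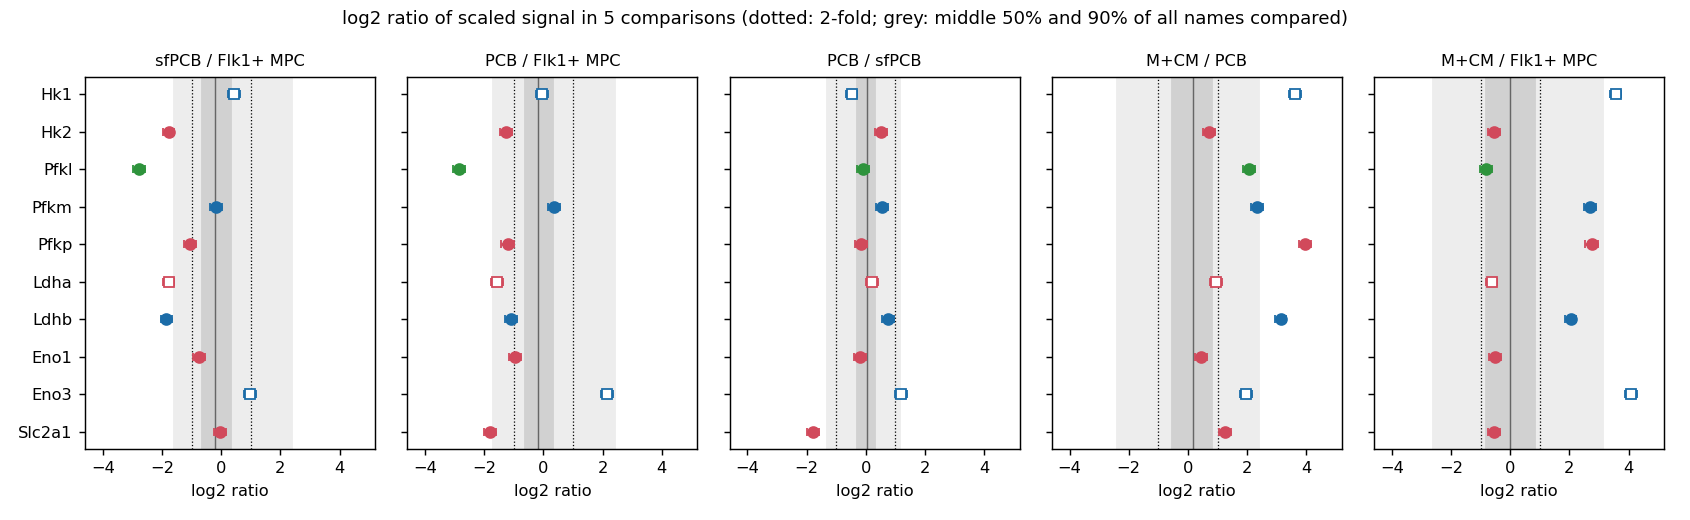
Log2 ratio of the scaled signal of each gene (horizontal axis, log2 units) in the 5 comparisons, with bars for the error of the ratio, filled circles for members and open squares for genes under another RefSeq name; dotted lines mark 2-fold, and the grey bands hold the middle 50% and 90% of all names compared around their median. Members lie left of the middle band or inside it in the comparisons of day 5.5 with Flk1+ MPCs except Pfkm in PCBs, and right of it for M+CMs over PCBs except Hk2 and Eno1.

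The balance between isoforms of a step was compared next, as the difference of the log2 ratios of a pair of genes. A scale factor of an array cancels in this measure, whereas quantile normalization can still move it. Of Hk2 over Hk1, the balance was 4.63-fold lower in sfPCBs and 2.32-fold lower in PCBs than in Flk1+ MPCs, and 17.4-fold lower in M+CMs (log2 shift -4.12, error 0.29). In PCBs Hk2 was lower with Hk1 level, and in M+CMs most of the shift lay in Hk1, which was higher. Of Pfkl over Pfkm, the balance was 9.42-fold lower in PCBs than in Flk1+ MPCs (log2 shift -3.24, error 0.29) and stayed 11.4-fold lower in M+CMs, with no difference beyond 2 errors between PCBs and M+CMs (-0.28, error 0.29). The muscle subunit was thus higher relative to the liver subunit in each later population. Pfkp over Pfkm was 2.99-fold lower in PCBs than in Flk1+ MPCs and was back at its start in M+CMs (0.04, error 0.29; -0.50 with the brighter Pfkp probe).

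Of Ldhb over Ldha, the balance was within 2 errors of Flk1+ MPCs in both day 5.5 populations (-0.07 in sfPCBs and 0.47 in PCBs, errors 0.29). It was 6.33-fold higher in M+CMs (log2 shift 2.66, error 0.29). With the brightest Ldha probe the shifts were -0.89 in sfPCBs, beyond 2 errors, -0.27 in PCBs and 2.15 in M+CMs (errors 0.29). Both lactate dehydrogenase genes were lower at day 5.5. In M+CMs Ldhb was high while Ldha lay 1.54-fold below Flk1+ MPCs (log2 ratio -0.63, error 0.20). That ratio was within 2 errors with quantile normalization (-0.28) and with the brightest probe (-0.11). Of Eno3 over Eno1, the balance was 3.27-fold higher in sfPCBs, 8.5-fold in PCBs and 24.4-fold in M+CMs compared with Flk1+ MPCs. It was also 2.6-fold higher in PCBs than in sfPCBs (log2 shift 1.38, error 0.29). With quantile normalization, the log2 shifts of sfPCBs, PCBs and M+CMs against Flk1+ MPCs were 1.20, 2.71 and 4.32. The main values were 1.71, 3.09 and 4.61.

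**Figure D3:**
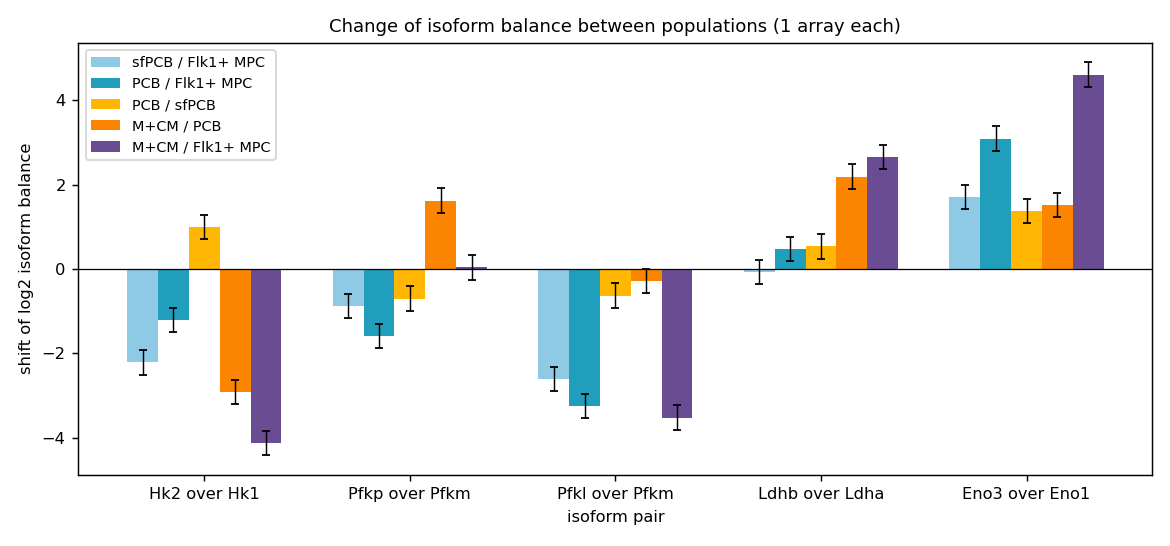
Shift of the log2 balance of a pair of isoforms (vertical axis, log2 units) for 5 pairs (horizontal axis) in the 5 comparisons, with bars for the error of the shift; below 0 the first gene of the pair is lower relative to the other. In M+CMs over Flk1+ MPCs the shifts are -4.12 for Hk2 over Hk1, -3.52 for Pfkl over Pfkm, 2.66 for Ldhb over Ldha and 4.61 for Eno3 over Eno1, and 0.04 for Pfkp over Pfkm.

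For the members past 2-fold in M+CMs over Flk1+ MPCs, the day 5.5 levels were placed on a scale from 0 in Flk1+ MPCs to 1 in M+CMs. PCBs lay at 0.14 for Pfkm, -0.44 for Pfkp and -0.54 for Ldhb, and sfPCBs at -0.06, -0.38 and -0.91. All 3 lay closer to Flk1+ MPCs than to M+CMs at day 5.5, with Pfkp and Ldhb on the far side of Flk1+ MPCs. Hk1 was at -0.01 in PCBs, and Eno3 was at 0.52, midway between the endpoints on the log2 scale.

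The other genes of glycolysis, its transporters and pyruvate entry were taken from a list of 41 genes, of which 40 were on the arrays. Between sfPCBs and Flk1+ MPCs, 13 of 38 genes compared were at least 2-fold lower and 4 higher, beside 12.7% and 13% of all names, and between PCBs and Flk1+ MPCs, 11 were lower and 5 higher, beside 12.1% and 12.7%. Their median log2 ratios were -0.45 and -0.40, beside -0.22 and -0.20 for all names. M+CMs were higher than PCBs in 23 of 39 genes and lower in 3, beside 20.4% and 15.2% of all names, with a median log2 ratio of 1.36 beside 0.16. Against Flk1+ MPCs, M+CMs were higher in 13 and lower in 6, beside 22% and 21.4% of all names. PCBs and sfPCBs differed in 6 of 38, 4 higher and 2 lower in PCBs, beside 6.13% and 7.45% of all names, which is a share near the background. With an offset of 50 the counts were 4 and 0, and with a normexp background 3 and 0.

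Among the 16 middle and last enzymes, 8 of 15 compared were lower in sfPCBs and 2 higher, against Flk1+ MPCs (12.7% and 13% of all names), and 7 were lower and 3 higher in PCBs (12.1% and 12.7%). In M+CMs, 9 of 16 were higher than in PCBs and 1 was lower (20.4% and 15.2%). Aldoc, an aldolase, had a scaled signal of 18644 in Flk1+ MPCs, 2022 in sfPCBs and 1554 in PCBs, then 42944 in M+CMs, and like Pfkp it was low at day 5.5 and highest in M+CMs. Pgk1, the phosphoglycerate kinase, was at 334955, 88598, 78879 and 267064, low at day 5.5 and highest in Flk1+ MPCs. Pkm, the pyruvate kinase of non-liver tissue, was at 123696, 40998, 42453 and 69557, and Tpi1, triosephosphate isomerase, was 2.58-fold lower in sfPCBs than in Flk1+ MPCs. Pgam2, the muscle phosphoglycerate mutase, had the opposite course, with 453.3, 1166, 4963 and 155829, higher at each population as Eno3 was and 344-fold up in M+CMs over Flk1+ MPCs (log2 ratio 8.43, error 0.20). Eno2, the neuronal enolase, was 7.76-fold and Ldhd, a D-lactate dehydrogenase, 6.26-fold higher in M+CMs than in PCBs. Ldhc, the testis form, was 4.94-fold lower in sfPCBs and 4.86-fold lower in PCBs than in Flk1+ MPCs, at signals near background (46.1, 9.3 and 9.5) with errors of 0.87 and 0.86.

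The regulators of phosphofructokinase set the level of fructose 2,6-bisphosphate, its activator. Pfkfb3 was at 1713 in Flk1+ MPCs, 600.8 in sfPCBs and 260.5 in PCBs, then 1244 in M+CMs. Pfkfb2, the heart form, was at 275.8, 154.6, 769.8 and 1814. Both differed between the day 5.5 populations and in opposite ways: in PCBs compared with sfPCBs, Pfkfb2 was 4.98-fold higher and Pfkfb3 2.31-fold lower. Pfkfb1, the liver and muscle form, had a 5.75-fold lower signal in M+CMs compared with Flk1+ MPCs.

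Of the 4 other glucose transporters compared, 2 were at least 2-fold higher and 1 lower in PCBs than in sfPCBs, beside 6.13% and 7.45% of all names. Slc2a4 encodes GLUT4, the insulin-dependent transporter of muscle and fat, and it was at 397.0 in Flk1+ MPCs, 1371 in sfPCBs and 4697 in PCBs, then 18117 in M+CMs, 3.42-fold higher in PCBs than in sfPCBs where Slc2a1 was 3.42-fold lower. Slc2a3, which encodes the high-affinity GLUT3, was 3.55-fold lower in PCBs than in Flk1+ MPCs. Slc2a8 was 2.13-fold higher and Slc2a10 2.39-fold lower in PCBs than in sfPCBs.

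At the exit of the pathway, Slc16a3, which encodes the lactate exporter MCT4, was at 141323 in Flk1+ MPCs, 17679 in sfPCBs and 21583 in PCBs, then 86410 in M+CMs, in the same order of populations as Ldha. The mitochondrial pyruvate carrier genes were higher in M+CMs than in PCBs, Mpc1 11.2-fold and Mpc2 5.08-fold, as Ldhb was. Of pyruvate dehydrogenase and its kinases, which switch the complex off, all 7 listed genes passed 2-fold upward in M+CMs over PCBs, beside 20.4% of all names. Pdk2 was 26.7-fold, Pdk4 21.6-fold and Pdk1 8.53-fold higher, and the subunit gene Dlat was 3.07-fold above Flk1+ MPCs in M+CMs. Pdk1 was in addition 4.6-fold lower in sfPCBs and 4.96-fold lower in PCBs than in Flk1+ MPCs, as Pfkl and Hk2 were lower.

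**Figure D4:**
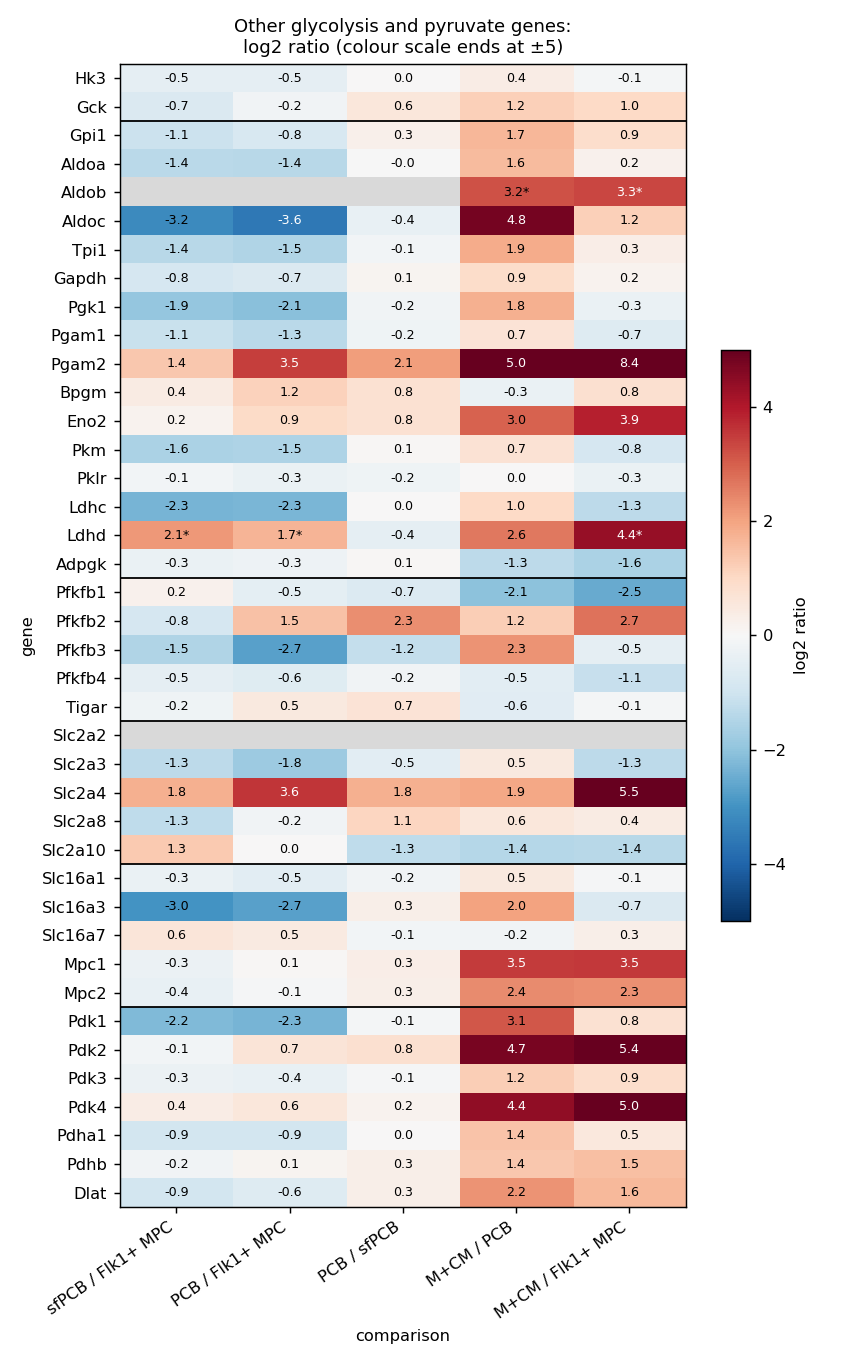
Log2 ratio of the scaled signal (colour and printed value, log2 units) of the 40 other pathway genes on the arrays (rows) in the 5 comparisons (columns), with horizontal lines between groups of genes, grey where a gene was not well above background on either array, and an asterisk where it was above background on 1 of the arrays. The M+CM over PCB column is mostly red, with 23 genes at least 2-fold higher and 3 lower, and the columns of day 5.5 over Flk1+ MPC are blue for 13 and 11 genes.

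The RefSeq names with courses most like those of the 2 members of widest range were found by the root mean square distance between log2 levels centred over the 4 populations, among 15139 names well above background in all of them. For Pfkp these were Tbc1d30 (distance 0.143), Adamts17 (0.180) and Dbp (0.182). Dbp, for example, had scaled signals of 5319, 3082, 3280 and 43747 from Flk1+ MPCs to M+CMs. For Ldhb they were Abhd18 (0.132), Foxo6 (0.137) and Ephx2 (0.158), and Ephx2 was at 339.1, 126.1, 200.1 and 1677. Each course rests on 4 arrays.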

How the data were processed

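Total RNA of 4 cell populations was measured on 1-colour Agilent arrays, 1 array each, all on 1 slide. The deposited values are intensities that the authors took from Agilent's Feature Extraction 11.5.1.1 (processed signal with its error, median spot and local background, quality flags), per the file headers background-subtracted on each array and not normalized between arrays, on a design annotated on mm9. A second deposited table of log2 values equals log2 of the processed signal within 1e-06 for 99% of probes, unscaled and uncentred (column medians 6.88 in Flk1+ MPCs, 7.40 in sfPCBs and 7.19 in PCBs, then 7.16 in M+CMs). Controls and spots with a flag for non-uniformity or as population outliers were left out (between 87 and 144 flagged per array, 0 saturated), and each array was scaled to the mean of the 75th percentiles (2198.4). Spots of a probe, then probes of a systematic name, were averaged on the log2 scale. A name was compared when well above background on at least 1 of the arrays, at a threshold of 2-fold, and the error of a ratio combines the software's errors of both signals.

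Symbols came from RefSeq accessions in a reference table, which matched 20503 of 20846 RefSeq mRNA names. Named were all 10 listed genes, up to 10 other pathway genes per comparison at least 2-fold different and well above background on both arrays, in order of size, and the 3 names most alike in course to the 2 members of widest range. Other genes were named for a marker or a copy only. The members and lists were chosen with earlier results of these data known. The steps were tested on simulated data. Python 3.11.15, numpy 2.4.6, pandas 2.3.3, scipy 1.17.1, matplotlib 3.10.9, R 4.3.3 and limma 3.58.1 were used. Alternatives were quantile normalization, no scaling, a normexp background (offset 50, on median signals, chosen after it was seen that the files hold no mean signals), an offset of 50, other filters on dim probes, the brightest probe per name, saturated spots left out, the deposited log2 table and, chosen after seeing the data, the 3 genes under other RefSeq names added as members.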

Additional observations from a re-analysis of the deposited data

How the results depend on the processing

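With 1 array per population, leaving out a replicate was not possible and no paired analysis was possible because no group has replicates. Precision is limited by the number of arrays, and all counts rest on single arrays. The counts of members at least 2-fold different kept within 1.5 times their main value under every alternative except the following. With Hk1, Ldha and Eno3 added through other RefSeq names, chosen after seeing the data, the count was 2 between PCBs and sfPCBs (1 higher, 1 lower) in place of 1, and 5 between M+CMs and Flk1+ MPCs (5 higher) in place of 3. For the other pathway genes, the count between PCBs and sfPCBs was 3 with a normexp background (3 higher, 0 lower) in place of 6. The cause was not tested.

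Of 675 single log2 ratios and balance shifts under alternatives, 617 moved by less than 1 error, 58 moved by more, and 0 that had passed 2-fold changed sign. Among the log2 ratios of single genes, 10 crossed 2-fold. Crossings of balance shifts were not counted, but some occurred. Hk2 over Hk1 in PCBs over Flk1+ MPCs was -1.21 and became -0.99 with quantile normalization. Pfkp over Pfkm in sfPCBs over Flk1+ MPCs was -0.88, and became -1.02 with quantile normalization and -1.44 with the brightest probe. The moves came from quantile normalization and no scaling (20 each), the brightest probe (13), a normexp background (4) and the offset (1). The crossings of single-gene ratios not given above were those of Eno3 in sfPCBs over Flk1+ MPCs. That ratio was 0.96 in the main setting, 1.07 with quantile normalization, 1.29 without scaling and 1.08 with a normexp background. No scaling moved the median of all names in sfPCBs over Flk1+ MPCs from -0.22 to 0.12 and the split of higher and lower names from 3351 and 3264 to 4537 and 1877. In M+CMs over PCBs it moved the median from 0.16 to -0.05 and the split from 5328 and 3980 to 4175 and 4987. Over all names, a normexp background also gave fewer 2-fold differences, with 2015 higher and 1646 lower in sfPCBs over Flk1+ MPCs. Signs of ratios short of 2-fold that turned were Pfkm in sfPCBs over Flk1+ MPCs (-0.17, 0.16 without scaling), Hk1 in PCBs over Flk1+ MPCs (-0.05, 0.14 without scaling) and Pfkl in PCBs over sfPCBs (-0.09, 0.01 with a normexp background), beside those given above for Slc2a1 and Eno1.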
